A study of Ovis aries with 4 samples.

Results

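The genes described here encode the subunits of the receptors for glutamate, GABA, glycine and, among the acetylcholine receptors, the nicotinic ones. They were chosen by symbol alone: every gene whose name in the gene list of the nuclei libraries starts with GRIA, GRIN, GRIK, GRID, GRM, GABR, GLRA, GLRB, CHRNA or CHRNB and goes on with a subunit number or letter. The rule found 57 of the 26478 gene identifiers: 4 AMPA, 7 NMDA, 5 kainate, 2 delta, 7 metabotropic glutamate, 17 GABA-A, 4 glycine and 11 nicotinic receptor genes. Their levels were read in nuclei of sheep striatum, class by class and library by library, and then in whole cells of the same tissue. Symbols that these lists do not hold, such as GRM5 and CHRNA7, were not analysed here.

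Fast excitation in the brain runs through AMPA, NMDA and kainate receptors, which are ion channels built of 4 glutamate-binding or glycine-binding subunits, while metabotropic glutamate receptors signal through G proteins. GABA-A and glycine receptors are chloride channels of 5 subunits that inhibit most adult neurons, and nicotinic receptors are cation channels of the same family that open on binding acetylcholine. The striatum receives glutamate from cortex and thalamus. Most of its neurons are medium spiny neurons, which release GABA, and a minority are interneurons. Glial cells carry several of these receptors as well, and those of oligodendrocyte precursors sit at synapses that neurons make on them.

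The tissue was frozen striatum of sheep (Ovis aries) aged 5 years, with no treatment or genotype named in the labels. There were 2 whole cells libraries and 2 nuclei libraries. Each pooled 2 animals: sheep 1 and 2 in the first library of each kind and sheep 3 and 4 in the second, per the sample titles (the protocol text gives animals 2 and 3 for the other cell suspension). Whole cells were released with papain, a protein-cutting enzyme, and nuclei by homogenising in a detergent buffer with a density gradient. Because a library holds a pool, no value can be traced to 1 animal, and p-values do not measure the spread among animals. Between classes they measure how class differences varied between the 2 pools, after a shift common to all classes was removed. Between nuclei and whole cells they measure the spread of the 2 pools within each kind. In both the spread was estimated over all groups of a fit and moderated across genes.

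A unique molecular identifier (UMI) marks 1 captured RNA molecule. The nuclei libraries held 70473292 and 51102420 UMIs and the whole cells libraries 1115058 and 19241918. Outside the mitochondrial genes the whole cells libraries held 125974 and 2512837. The 57 receptor genes took 1776856 and 1232286 UMIs in nuclei, against 198 and 4361 in whole cells. The 2 nuclei libraries shared 29 barcodes. Nuclei were clustered without the receptor genes and named from marker genes, which gave, in library 1 and library 2, 3829 and 3903 oligodendrocyte-like, 1247 and 1314 medium spiny neuron-like, 711 and 648 astrocyte-like, 787 and 863 microglia-like, 587 and 786 oligodendrocyte precursor-like, 208 and 221 interneuron-like and 43 and 32 endothelial-like nuclei, while 898 and 621 stayed unnamed. The doublet caller marked 390 nuclei in library 1 and 0 in library 2, where it did not work, so doublets remained in library 2. Some clusters lay mostly in 1 library: a medium spiny neuron-like cluster held 12 nuclei of library 1 and 923 of library 2, and an oligodendrocyte-like one 308 and 2098.

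Levels below are counts per 1000000 UMIs (CPM), with the UMIs summed over a class in a library, scaled by edgeR's TMM factors, and are given for library 1 and then library 2. Fold changes are log2 values with their standard error. Transcript lengths were not available for these gene models, so a level is compared only with the level of the same gene elsewhere. A level is a share of a class's RNA: more RNA of other genes and less of this one cannot be told apart. A receptor gene was called when its adjusted p (edgeR quasi-likelihood test over all genes, Benjamini-Hochberg) was under 0.05. The share of all tested genes called is given beside the first count in each comparison, and it includes the genes on which the nuclei were clustered. Scaling by library size alone moved the median of all genes by -0.24 for medium spiny neuron-like over oligodendrocyte-like nuclei, by 0.26 for interneuron-like over medium spiny neuron-like, by 0.27 and 0.42 for astrocyte-like and microglia-like over oligodendrocyte-like (all log2), and no called receptor gene changed sign under it between classes.

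Receptor genes took the largest share of RNA in the neuronal classes and the smallest in microglia-like and endothelial-like nuclei. The 57 genes together made up 2.96% and 2.86% of the UMIs of medium spiny neuron-like nuclei, 2.54% and 2.49% of interneuron-like and 2.23% and 2.09% of oligodendrocyte precursor-like nuclei. They made up 1.69% and 1.79% in oligodendrocyte-like, 1.38% and 1.5% in astrocyte-like, 0.202% and 0.419% in microglia-like and 0.508% and 0.320% in endothelial-like nuclei, the last from 367 and 130 UMIs. Families divided differently among the classes. The AMPA genes took 0.841% and 0.797% of the UMIs of medium spiny neuron-like nuclei and 0.780% and 0.721% of those of oligodendrocyte precursor-like nuclei, but 0.103% and 0.106% in oligodendrocyte-like nuclei. The metabotropic glutamate genes took 1.27% and 1.30% in oligodendrocyte-like nuclei, more than the 0.489% and 0.452% in medium spiny neuron-like or the 0.242% and 0.298% in precursor-like nuclei.

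Of the 57 genes, 43 had enough UMIs to be tested across classes, and the other 14 had 1 to 82 UMIs over both nuclei libraries. For 37 of the 43 the same class was highest in both libraries. Medium spiny neuron-like nuclei were highest for 18 of them, among them GRIA1, GRIN2B, GRM4, GABRA5 and GLRA2. Interneuron-like nuclei were highest for 8, among them GRIN2A, GRIN3A, GABRB2, GABRG3, CHRNA3, CHRNA6 and CHRNB4, though GABRB2 was not called over medium spiny neuron-like nuclei (log2 fold change 0.18). CHRNA3, CHRNA6 and CHRNB4 had enough UMIs to be tested only through interneuron-like nuclei. Oligodendrocyte-like nuclei were highest for GRIK3, GRM3, GRM7 and GRM8, oligodendrocyte precursor-like nuclei for 4 that include GRIK4 and GABRG1, and astrocyte-like nuclei for GRIK1, GABRB1 and GLRA1. Microglia-like nuclei were highest for none of them.

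**Figure D1:**
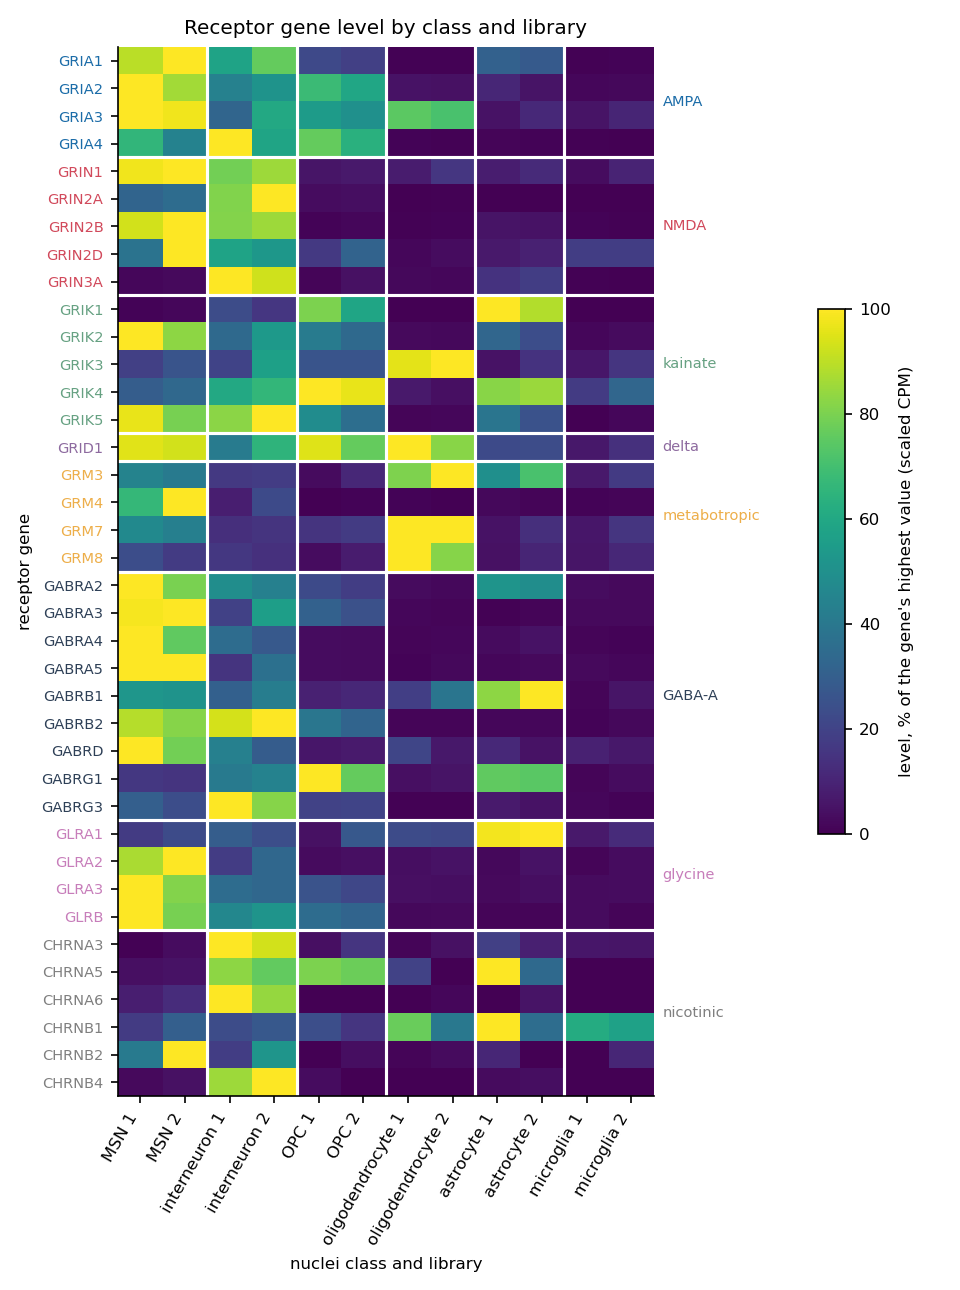
Level of 38 of the 43 tested receptor genes (rows, coloured by family) in 6 classes of nuclei and 2 libraries (columns), each row as a percent of the gene's own highest scaled CPM; MSN stands for medium spiny neuron-like and OPC for oligodendrocyte precursor-like nuclei. Most AMPA, NMDA and GABA-A genes are brightest in the neuronal columns, GRIK3, GRM3, GRM7 and GRM8 in the oligodendrocyte columns, and GRIK1 in the precursor and astrocyte columns.

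Medium spiny neuron-like nuclei differed from oligodendrocyte-like nuclei, the largest class, in most receptor genes. Of the 43 tested, 32 were higher and 4 lower, against 32.8% of all tested genes higher and 29.7% lower. The median log2 fold change was 4.41 over the receptor genes and 0.04 over all genes. GRIA1, an AMPA channel subunit, stood at 3173 and 3533 CPM in medium spiny neuron-like and at 22.8 and 26.2 in oligodendrocyte-like nuclei (log2 fold change 7.10 ± 0.30, SE; adjusted p = 2.76e-10). GRIA4, another AMPA subunit, stood at 5552 and 3749 against 76.3 and 49.0 (6.22 ± 0.28, adjusted p = 3.62e-10). GRIN2B, the glutamate-binding NMDA subunit that prevails early in brain development, stood at 2269 and 2436 against 16.4 and 20.4 (7.0 ± 0.30, adjusted p = 2.76e-10). For all 3 genes both neuronal values lay above both glial ones.

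The NMDA genes included GRIN1, the subunit that every NMDA receptor needs, at 52.6 and 53.6 CPM against 4.10 and 8.40 (log2 fold change 3.14 ± 0.25), and GRIN2A, at 273.9 and 300.1 against 2.53 and 6.52 (6.04 ± 0.30). GRIN3A, a glycine-binding subunit that lowers calcium entry, was not called (2.52 and 3.89 against 3.14 and 2.46, adjusted p = 0.723), and its groups overlapped. Kainate receptors were represented by GRIK2, at 5531 and 4591 against 136.6 and 111.4 (5.35 ± 0.36), and GRIK5, a subunit that gives the channel a high affinity for glutamate, at 98.0 and 80.9 against 1.21 and 1.59 (5.99 ± 0.33). The delta gene GRID1, whose protein binds cerebellin and links the synapse's sides, was at 1023 and 998.6 against 1071 and 880.6, with no difference called (0.05 ± 0.31). Every gene named as called in these sentences was higher in both libraries.

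All 12 tested GABA-A genes were higher in medium spiny neuron-like nuclei, which receive GABA from each other and from interneurons. GABRB2, a beta subunit, stood at 664.0 and 612.4 CPM against 9.53 and 11.2 (log2 fold change 5.95 ± 0.25, adjusted p = 2.76e-10). GABRA3 and GABRA5, alpha subunits, stood at 261.7 and 265.4 against 4.46 and 3.62 (6.01 ± 0.41) and at 260.0 and 260.5 against 3.02 and 5.36 (6.01 ± 0.33). The smallest difference of the family was that of GABRB1, at 1679 and 1640 against 595.2 and 1233 (0.98 ± 0.38, adjusted p = 0.0348). That call was lost without the library term in the fit (adjusted p = 0.189), with library size scaling (0.097) and with DESeq2 (0.0543), and the 2 oligodendrocyte-like values differed more from each other than the neuronal ones did. GABRD, the subunit of receptors outside synapses, stood at 25.0 and 19.6 against 5.19 and 1.59 (2.76 ± 0.30).

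Of 4 glycine receptor genes 3 were higher as well. GLRA2, an alpha subunit, stood at 345.6 and 395.0 CPM against 14.2 and 18.7 (log2 fold change 4.51 ± 0.23, adjusted p = 1.01e-09), and GLRB, the subunit that ties the channel to gephyrin, at 266.2 and 212.0 against 6.03 and 6.66 (5.23 ± 0.22). GLRA1 was low in both (2.97 and 3.98 against 3.98 and 3.77) and not called. GRM4, a metabotropic receptor that lowers cyclic AMP, was at 77.9 and 116.8 against 1.21 and 0.29 (6.87 ± 0.44, adjusted p = 1.58e-08), the 2 glial values resting on 10 and 2 UMIs. The nicotinic CHRNB2, the beta subunit of the most common brain type, stood at 4.08 and 9.95 against 0.12 and 0.29 (4.95 ± 0.66, adjusted p = 2.05e-05). Here too every value in the neuronal class lay above both values in the glial class, except for GLRA1.

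Genes whose proteins work with these receptors were counted in lists of their own. Of the glutamate receptor auxiliary subunits, 11 of 13 tested were higher in medium spiny neuron-like nuclei and 0 lower, for example CACNG3, at 180.4 and 218.9 CPM against 1.69 and 1.59. Of the scaffold proteins of excitatory synapses, 13 of 16 were higher and 1, HOMER2, lower. The GABA-synthesising enzymes GAD1 and GAD2 were higher by 4.93 ± 0.30 and 4.32 ± 0.23 (log2). Medium spiny neuron markers summed to 12435.6 and 10678 CPM in their own class and to 12.2% and 11.7% of that in oligodendrocyte-like nuclei, with 1 of the 16 at 0 in each library.

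The receptor genes at their highest in oligodendrocyte-like nuclei were 3 metabotropic receptors that lower cyclic AMP and 1 kainate subunit. GRM8, a metabotropic receptor of the same group as GRM4, stood at 6061 and 4966 CPM there and at 1421 and 1061 in medium spiny neuron-like nuclei (log2 fold change, neuronal over glial, -2.15 ± 0.41, adjusted p = 0.000409). GRIK3, a kainate subunit, stood at 763.9 and 796.5 against 152.1 and 207.0 (-2.17 ± 0.34, adjusted p = 6.48e-05). GRM7, of the same group as GRM8, stood at 8722 and 8744 against 4146 and 3760. Its neuronal values lay below both glial ones, but the difference missed the threshold (-1.14 ± 0.48, adjusted p = 0.0544), and it passed under 5 of the alternatives. GRM3, a metabotropic receptor known mainly from astrocytes, stood at 402.7 and 499.5 against 224.1 and 204.6 (-1.04 ± 0.39, adjusted p = 0.0307), a call lost with DESeq2 (0.224) and without the library term (0.0847). CHRNB1 was the other called gene, at 3.62 and 1.88 against 0.82 and 1.42 (-1.30 ± 0.46, adjusted p = 0.026), from 30 and 13 UMIs in the glial class, a call lost with DESeq2 (0.163) and without the library term (0.0701).

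**Figure D2:**
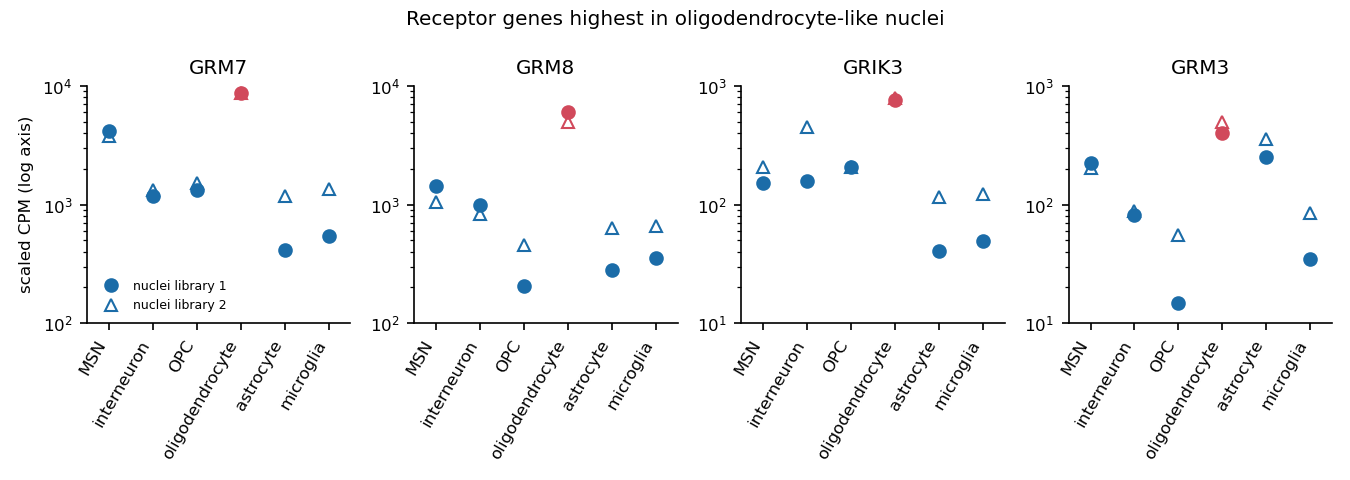
Scaled CPM (log axis) of GRM7, GRM8, GRIK3 and GRM3 in 6 classes of nuclei, 1 symbol per library, with oligodendrocyte-like nuclei in red (MSN, medium spiny neuron-like; OPC, oligodendrocyte precursor-like). GRM7 stands at 8722 and 8744 in oligodendrocyte-like nuclei, and in astrocyte-like and microglia-like nuclei library 2 lies above library 1 for each of the 4 genes.

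The oligodendrocyte-like nuclei were not uniform. In a cluster of 492 and 516 nuclei led by MMRN1, MOBP and ENPP6, GRM7 stood at 11740.7 and 12534.5 CPM (of each cluster's own UMIs, without TMM), against 6375 and 7396 in the cluster of 3029 and 1289 nuclei and 6569 and 6473 in that of 308 and 2098. GRIK2 was also higher in the MMRN1 cluster, at 214.6 and 210.7 against 66.1 to 94.1 in the other two. GABRB1 was lower there, at 147.1 and 516.4 against 569.6 and 1350.1 and 524.6 and 1190.3. GRM8 overlapped, with 4597 and 3984 against 4442 to 5165. These genes were picked after their values were seen, and clusters were not tested against each other.

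Within the medium spiny neuron-like nuclei 1 cluster stood out in its receptor genes. It held 73 and 86 nuclei and was led by ALK, which the marker lists hold for eccentric medium spiny neurons and which was also among the leading genes of both interneuron-like clusters. GABRG3, a gamma subunit of the GABA-A receptor, stood at 2084 and 1896 CPM there and between 101.7 and 218.6 in the other 3 clusters. GRIN2A stood at 630.2 and 749.3 against 114.5 to 277.5, and GRIK4, a high-affinity kainate subunit, at 475.4 and 629.1 against 70.4 to 143.6. GABRA5 was lower in the ALK cluster, at 64.3 and 66.01 against 186.3 to 245.2, and so was GLRA2, at 59.5 and 107.8 against 207.0 to 369.3. For each of these 5 genes the ranges did not overlap. They were chosen after their values were seen and carry no test.

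Interneuron-like nuclei differed from medium spiny neuron-like nuclei in which subunits they held. Of 43 genes, 11 were higher and 15 lower in interneuron-like nuclei, against 14.6% and 14.9% of all tested genes, and the median log2 fold change was -0.45 against -0.04 over all genes. With at least 500 genes per nucleus, or with doublets kept, 7 were higher. Of 6 nicotinic genes 4 were higher and 0 lower. Of these, CHRNA3, CHRNA6 and CHRNB4 had enough UMIs to be tested only through interneuron-like nuclei. Their direction was thus largely fixed by the filter on low counts, and their calls are no separate support. CHRNA9, with 1 and 1 UMIs against 36 and 29, was not tested and could not count as lower. CHRNA3, an alpha subunit known from autonomic ganglia, stood at 9.44 and 8.81 CPM against 0.07 and 0.31 (log2 fold change 5.57 ± 0.56, adjusted p = 8.88e-06), from 26 and 34 UMIs against 2 and 7. Its ganglionic partner CHRNB4 stood at 10.2 and 11.9 against 0.29 and 0.53 (4.71 ± 0.46, adjusted p = 1.86e-05). CHRNB2 stood at 1.82 and 5.18 against 4.08 and 9.95, with no difference called (adjusted p = 0.138), though it was called lower with receptor genes in the clustering (-1.19, adjusted p = 0.0468) and at a resolution of 1.0 (-1.19, adjusted p = 0.047).

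Glutamate receptor genes that were higher in interneuron-like nuclei were GRIN3A, GRIK1, GRIN2A and GRIK4. GRIN3A stood at 150.7 and 139.9 CPM against 2.52 and 3.89 (log2 fold change 5.53 ± 0.27, adjusted p = 1.17e-08). GRIK1, a kainate subunit, stood at 506.6 and 346.6 against 24.8 and 38.4 (3.76 ± 0.33, adjusted p = 1.58e-06). GRIN2A stood at 687.4 and 847.2 against 273.9 and 300.1 (1.41 ± 0.22, adjusted p = 0.000339). In each the 2 classes did not overlap. The call of GRIK4 (adjusted p = 0.0108) was lost without the medium spiny neuron-like cluster of nearly 1 library (0.147). Lower were the metabotropic GRM4, at 9.805 and 26.2 against 77.9 and 116.8 (-2.45 ± 0.32, adjusted p = 6.68e-05), and GRM7, at 1191 and 1330 against 4146 and 3760 (-1.66 ± 0.49, adjusted p = 0.0198). GRIK2 was lower as well (1890 and 2995 against 5531 and 4591, -1.05 ± 0.30, adjusted p = 0.0166), but with at least 500 genes per nucleus its fold was -0.42 and no longer called (adjusted p = 0.231). GRIN2B (1982 and 2080) and GRIA4 (8445 and 4933) did not pass (adjusted p = 0.538 and 0.108), although GRIA4 was called with DESeq2 (0.0038) and with library size scaling (0.0152). Precursor markers summed to 10.9% and 11.2% of their own-class level in interneuron-like and to 10.7% and 12.1% in medium spiny neuron-like nuclei, and medium spiny neuron markers to 21.5% and 30.3% in interneuron-like nuclei, whose part in these levels was not tested.

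Inhibitory receptors differed by subunit. GABRG3, a gamma subunit, stood at 1272 and 1043 CPM in interneuron-like against 385.4 and 300.4 in medium spiny neuron-like nuclei (log2 fold change 1.76 ± 0.23, adjusted p = 9.03e-05) and GABRG1 at 32.7 and 35.2 against 12.8 and 11.9 (1.46 ± 0.20, adjusted p = 9.48e-05). The alpha subunits GABRA3, GABRA4 and GABRA5 were lower. GABRA5 stood at 38.9 and 96.6 against 260.0 and 260.5 (-2.02 ± 0.26, adjusted p = 4.5e-05), GABRA4 at 421.2 and 332.6 against 1186 and 894.6 (-1.46 ± 0.23) and GABRA3 at 50.8 and 148.4 against 261.7 and 265.4 (-1.46 ± 0.32). GABRA4 missed the threshold with at least 500 genes per nucleus (-0.91, adjusted p = 0.0528). The glycine receptor genes GLRA2 (70.8 and 132.4 against 345.6 and 395.0, -1.93 ± 0.21, adjusted p = 8.72e-06) and GLRA3 (82.8 and 78.2 against 234.3 and 190.5, -1.39 ± 0.15) were lower too, as was GLRB. GABRB1 did not differ beyond the threshold (974.6 and 1345, adjusted p = 0.282).

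The interneuron-like class joined 2 clusters with different receptor genes. A cluster of 145 and 159 nuclei, led by NXPH1 and with KIT among its leading genes, had median depths of 13366 and 17995 UMIs. A cluster of 63 and 62 nuclei, with NOS1, NPY and SST among its leading genes, had 2071 and 3559.5. GABRG3 stood at 1358 and 1022 CPM (of each cluster's own UMIs) in the deeper cluster and at 120.8 and 127.1 in the NOS1, NPY and SST cluster, GRIA1 at 2180 and 2571 against 267.7 and 845.3, and GABRB2 at 749.4 and 733.1 against 48.3 and 87.5. GRIN3A ran the other way, with 101.7 and 83.6 against 316.0 and 358.3. The higher GABRG3 of the class thus sat in the deeper cluster, as did its GABRB2. When doublets were kept, or 500 genes per nucleus required, only the NOS1, NPY and SST cluster was named interneuron-like, and GABRG3 (-1.29, adjusted p = 0.000434, and -0.49, adjusted p = 0.188) changed sign. In the same order GABRB2 (-2.97 and -3.04, from 0.18), GRIA1 (-2.28 and -2.46, from -0.50) and GRID1 (-2.12 and -2.44, from -0.84) were then called lower.

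**Figure D3:**
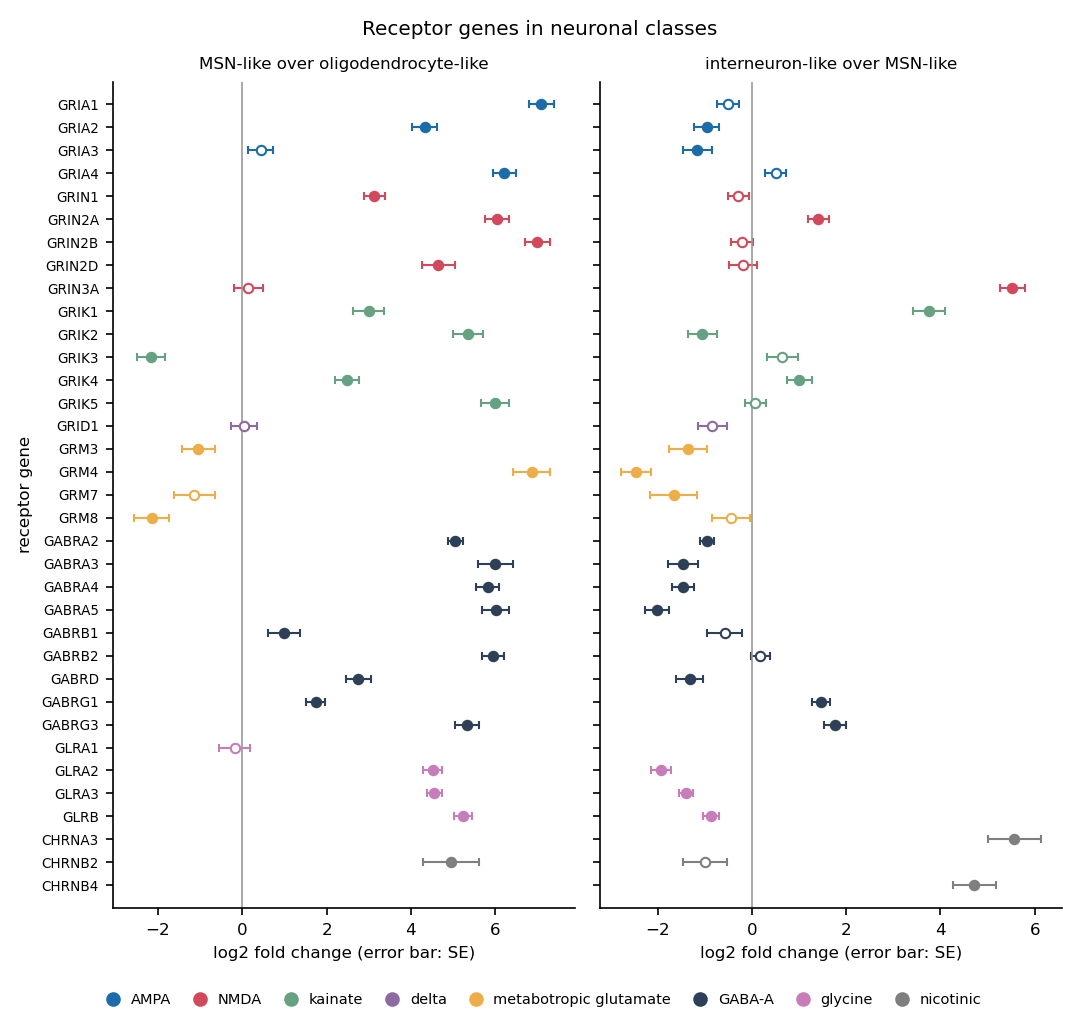
Log2 fold change with its standard error for each receptor gene with at least 50 UMIs in the higher class, medium spiny neuron-like (MSN) over oligodendrocyte-like (left) and interneuron-like over medium spiny neuron-like (right). Filled symbols have an adjusted p under 0.05. The plotted GABA-A genes lie right of 0 on the left, and on the right GABRG1 and GABRG3 lie opposite GABRA3, GABRA4 and GABRA5.

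Oligodendrocyte precursors are known to keep ionotropic receptors that their mature descendants lose. Precursor-like nuclei were higher than oligodendrocyte-like nuclei in 24 of 43 receptor genes and lower in 5, against 22.7% and 19.9% of all tested genes, with a median log2 fold change of 2.60 against -0.07. GRIK1 stood at 1743 and 1276 CPM against 2.90 and 5.07 (8.58 ± 0.43, adjusted p = 2.62e-09). GRIA4 stood at 6456 and 5356 against 76.3 and 49.0 (6.60 ± 0.28, adjusted p = 8.72e-10), GRIA1 at 777.5 and 672.5 against 22.8 and 26.2 (4.90 ± 0.28) and GRIK5 at 49.5 and 36.5 against 1.21 and 1.59 (4.94 ± 0.35). GRIA2, the subunit that makes AMPA channels impermeable to calcium, stood at 1280 and 1110 against 88.3 and 85.0 (3.78 ± 0.29). GRIA3 was the AMPA gene with no difference called, at 775.2 and 707.5 against 1051 and 1002 (adjusted p = 0.242). With doublets kept it was called lower (-0.49, adjusted p = 0.0291). The kainate gene GRIK2 (2307 and 1889, 4.08 ± 0.34) was higher as well.

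Among GABA-A genes 9 of 12 were higher in precursor-like nuclei and 1 lower. GABRG3 stood at 250.0 and 261.3 CPM against 6.998 and 9.85 (log2 fold change 4.93 ± 0.29), GABRG1 at 79.4 and 60.7 against 3.38 and 4.05 (4.23 ± 0.23, adjusted p = 1.11e-08) and GABRB2 at 294.6 and 240.5 against 9.53 and 11.2 (4.70 ± 0.24). GABRB1 was the lower one, at 288.9 and 360.0 against 595.2 and 1233 (-1.41 ± 0.38, adjusted p = 0.00824). The NMDA gene GRIN2B was higher by 0.91 ± 0.26 (26.5 and 42.8 against 16.4 and 20.4, adjusted p = 0.0128), a small value beside its 2269 and 2436 in medium spiny neuron-like nuclei, and at a clustering resolution of 1.0 it was not called (adjusted p = 0.0772). The precursor levels of GLRA2 (11.3 and 16.8) and CHRNB2 (0 and 0.37, from 0 and 1 UMIs) did not differ beyond the threshold from the oligodendrocyte-like ones.

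The other 4 genes lower in the precursors were the ones highest in oligodendrocyte-like nuclei, which by itself fixes their direction here. GRM8 stood at 206.5 and 455.7 CPM in precursor-like nuclei (log2 fold change -4.12 ± 0.45, adjusted p = 4.09e-06), GRM3 at 14.8 and 55.6 (-3.75 ± 0.46, adjusted p = 1.09e-05), GRM7 at 1331 and 1506 (-2.63 ± 0.51, adjusted p = 0.00072) and GRIK3 at 208.0 and 206.9 (-1.91 ± 0.34, adjusted p = 0.000376). Each of them lay below both oligodendrocyte-like values. Oligodendrocyte markers summed to 8.75% and 13.0% of their own-class level in precursor-like nuclei. GRM8 stood at 3.41% and 9.18% of its oligodendrocyte-like level there, GRM7 at 15.3% and 17.2% and GRIK3 at 27.2% and 26.0%. How far oligodendrocyte RNA in these droplets entered those levels was not tested. Auxiliary subunits were higher in precursors for 11 of 13 genes and lower for 0, among them CACNG4, at 70.7 and 68.3 against 0.60 and 0.72.

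Astrocyte-like nuclei were higher than oligodendrocyte-like nuclei in 17 of 43 receptor genes and lower in 6, against 23.5% and 18.5% of all tested genes (42% in either direction), with a median log2 fold change of 0.76 against -0.02. Of the 17, GRIA2 and CHRNA5 lost their calls under 4 alternatives of the clustering. At a resolution of 1.0 GRIA2, whose fold is that median, stood at 0.12 (adjusted p = 0.744). GRIN2D and GABRA4 also lost theirs there (adjusted p = 0.208 and 0.0575). GRIK1 had the largest fold of the called genes, at 2174 and 1926 CPM against 2.90 and 5.07 (9.02 ± 0.44, adjusted p = 1.9e-09). Other kainate genes were higher too: GRIK5 at 39.4 and 25.7 (4.54 ± 0.36), GRIK4 at 410.9 and 425.1 against 35.1 and 20.7 (3.89 ± 0.30) and GRIK2 at 1825 and 1301 (3.65 ± 0.33). GRIA1 stood at 1102 and 1003 against 22.8 and 26.2 (5.43 ± 0.28, adjusted p = 3.76e-09), while GRIA4 stood at 102.2 and 76.3 against 76.3 and 49.0 and did not pass (adjusted p = 0.0862). GRIA4 was called with DESeq2 (0.00194) and library size scaling (0.0113), and its sign changed under 4 alternatives of the clustering.

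Of 12 GABA-A genes 6 were higher in astrocyte-like nuclei and 0 lower. Among the 6 was GABRA4 (log2 fold change 1.36, adjusted p = 0.000659). Its call was lost with at least 500 genes per nucleus (0.051), doublets kept (0.0529) and a resolution of 1.0 (0.0575). GABRA2 stood at 388.9 and 367.3 CPM against 23.2 and 17.4 (log2 fold change 4.23 ± 0.18), GABRG1 at 59.9 and 59.0 against 3.38 and 4.05 (4.00 ± 0.24) and GABRB1 at 2644 and 3186 against 595.2 and 1233 (1.76 ± 0.38, adjusted p = 0.00185). GLRA1 was higher, at 16.97 and 17.3 against 3.98 and 3.77, from 47 and 41 UMIs (2.13 ± 0.39, adjusted p = 0.000562). The NMDA gene GRIN2B stood at 131.4 and 115.1 (2.75 ± 0.26, adjusted p = 9.53e-07). GLRA2 and CHRNB2 were not called (adjusted p = 0.314 and 0.4). The glutamate transporters SLC1A2 and SLC1A3, which also serve as astrocyte markers and chose the class, stood at 4083 and 4036 and at 2435 and 2038.

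Lower in astrocyte-like nuclei were GRM8 (283.5 and 629.2 CPM, log2 fold change -3.66 ± 0.44, adjusted p = 1.09e-05), GRM7 (412.4 and 1171, -3.53 ± 0.53), GRIK3 (40.4 and 116.8, -3.48 ± 0.37), GRIA3 (70.1 and 161.5, -3.24 ± 0.34) and GRID1 (239.8 and 248.0, -2.01 ± 0.32). GRIN2A was lower by 1.46 ± 0.55 (log2, adjusted p = 0.0487), from 5 and 3 UMIs, and 7 alternatives lost that call. GRM3, which astrocytes are known to carry, stood at 249.5 and 356.8 and did not differ beyond the threshold from oligodendrocyte-like nuclei (-0.59 ± 0.39, adjusted p = 0.252). With no filter on low counts GRM3 was called lower (-0.69, adjusted p = 0.00459). GRID1 was nearly equal in the 2 libraries. GRIA3 stood at 1051 and 1002 in oligodendrocyte-like nuclei. The levels of GRM7, GRM8, GRIK3 and GRIA3 in astrocyte-like nuclei were higher in library 2 than in library 1, as was the sum of oligodendrocyte markers. Those 11 markers summed to 6.43% and 14.5% of their own-class level in astrocyte-like nuclei, none at 0, and GRM7, GRM8 and GRIK3 lay between 4.68% and 5.29% of their oligodendrocyte-like levels in library 1 and between 12.7% and 14.7% in library 2. Whether oligodendrocyte RNA made up the levels of these 3 genes, or those of GRIA3 and GRID1, was not tested.

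Microglia-like nuclei held little receptor RNA. Of 43 genes 3 were higher than in oligodendrocyte-like nuclei and 9 lower, against 21.7% and 24.1% of all tested genes (45.8% in either direction), and the median log2 fold change was -0.49 against -0.09. At a clustering resolution of 1.0 the count of higher genes was 8, with GRIA1 (1.60, adjusted p = 0.000898) and GABRB2 (0.73, adjusted p = 0.0271) among those added. The 3 genes higher at the resolution of 0.5 used otherwise were GRIK4, at 87.1 and 165.3 CPM against 35.1 and 20.7 (2.15 ± 0.30, adjusted p = 3.01e-05), GABRG3, at 24.2 and 11.8 against 6.998 and 9.85 (1.07 ± 0.33, adjusted p = 0.017), and GRIN2D, at 12.7 and 12.9 against 1.21 and 2.46, from 22 and 24 UMIs (2.82 ± 0.52). GRIK4 lay above both oligodendrocyte-like values in each library. Among the lower ones, by 2.97 to 3.49 log2 units, were GRM8, GRIK3, GRIA3, GRM7, GRID1, GRM3 and GABRB1, the last at 43.8 and 181.4 against 595.2 and 1233 (-3.09 ± 0.41, adjusted p = 2.39e-05). GRIA2 was lower by 1.32 ± 0.30 log2 units. GRIA4, GRIN2B, GRIK2, GLRA2 and CHRNB2 were not called (adjusted p from 0.0519 to 0.894), though GLRA2 was called lower with doublets kept (0.00756), with no filter on low counts (0.0144) and with at least 500 genes per nucleus (0.0485). GRIN2B, at 20.2 and 15.0 against 16.4 and 20.4, was called higher at a clustering resolution of 1.0 (1.35, adjusted p = 0.017).

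The levels of most lower genes in microglia-like nuclei were well above those of library 1 in library 2, again alongside oligodendrocyte markers, and so was that of GRIK4, which was not a lower gene. GRIA2, at 31.1 and 38.1 CPM, differed less. GRM7 stood at 539.8 and 1365 CPM, GRM8 at 351.8 and 663.3 and GRIK3 at 49.0 and 122.4, and these 3 were 5.80% to 6.42% of their oligodendrocyte-like levels in library 1 and 13.4% to 15.6% in library 2. The marker sum stood at 7.58% and 15.9%. In medium spiny neuron-like nuclei the same markers summed to 2.38% and 2.64%, while GRM7 stood at 47.5% and 43.0% of its oligodendrocyte-like level. The part of oligodendrocyte RNA in the microglia-like levels was not tested.

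**Figure D4:**
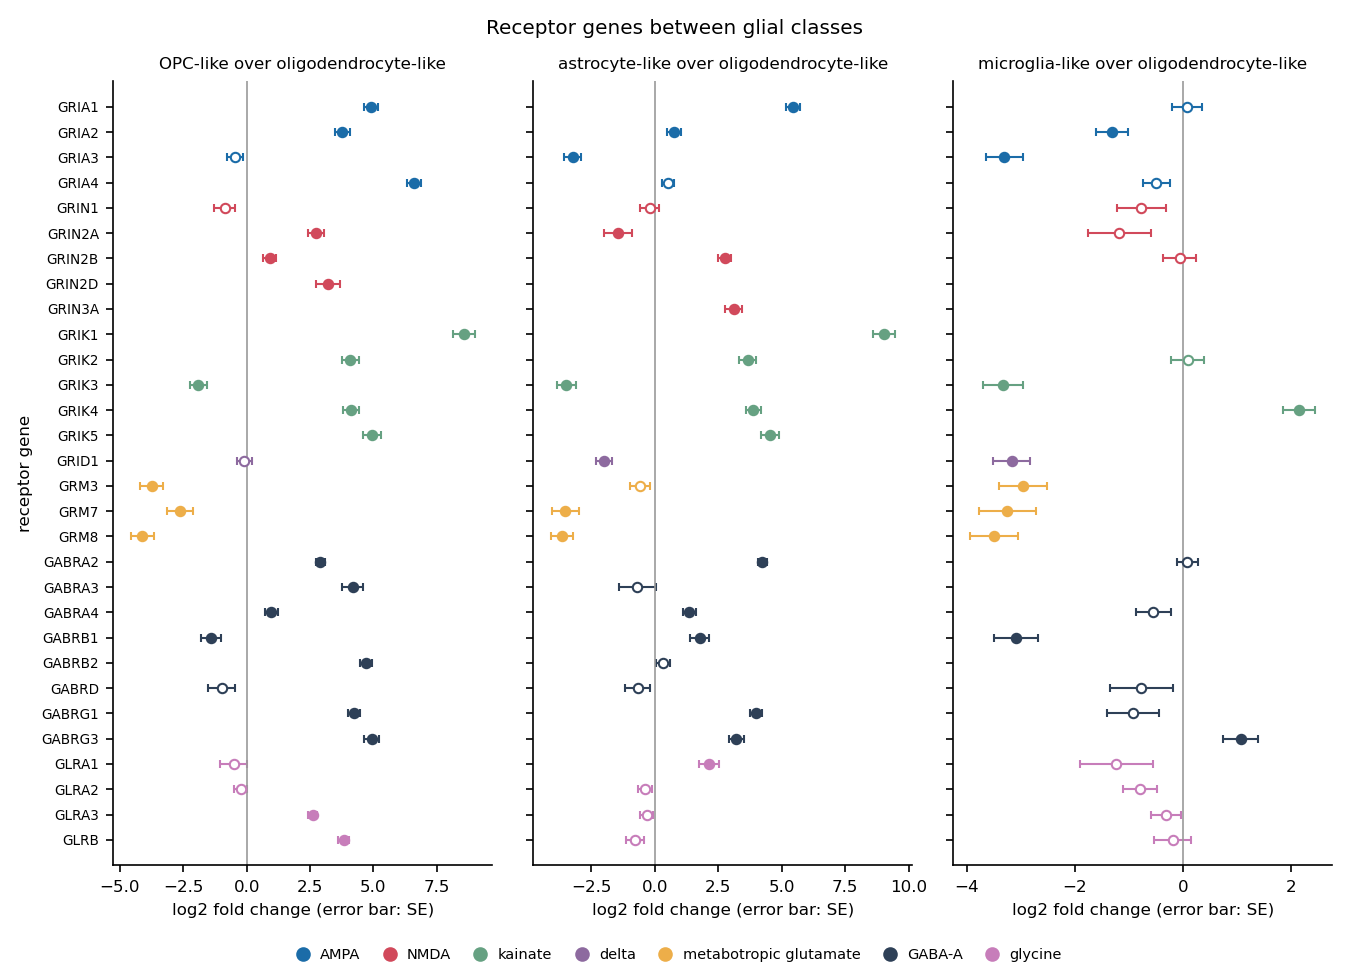
Log2 fold change with its standard error for precursor-like (OPC), astrocyte-like and microglia-like over oligodendrocyte-like nuclei, for receptor genes with at least 50 UMIs in the higher class. Filled symbols have an adjusted p under 0.05. GRIK1 lies at 8.58 and 9.02 in the precursor and astrocyte panels, and GRM7, GRM8 and GRIK3 lie left of 0 in all 3.

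Medium spiny neurons form 2 main output types, one with D1 dopamine receptors and the peptide gene TAC1 and one with D2 receptors (DRD2) and PENK. Sub-clusters were assigned by such markers to a D1-like type of 501 and 526 nuclei and a D2-like type of 561 and 461. TAC1 stood at 324.9 and 221.4 CPM in the former and 22.8 and 16.5 in the latter, and DRD2 at 1.04 and 5.599 against 36.2 and 52.2, which the assignment fixed. DRD2 itself did not pass (adjusted p = 0.156). None of the 44 receptor genes tested was called between the types. At an unadjusted p under 0.05 there were 6, and DESeq2 called 1. Over all 13765 genes 13 were called, or 0.0944% (0.0509% higher and 0.0436% lower in D1-like nuclei), so few genes of any kind passed in this comparison. Of the 44 receptor genes, 36 had a log2 fold change within 0.5 of 0.

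GRIK3 had the largest difference of the receptor genes between the types. It stood at 23.2 and 79.6 CPM in D1-like and at 196.7 and 302.7 in D2-like nuclei, with no overlap (log2 fold change, D1-like over D2-like, -2.41 ± 0.59, unadjusted p = 0.00387 and adjusted p = 0.522 by edgeR). Without the filter on low counts it was the 1 gene called (adjusted p = 0.0145). GABRG3 stood at 128.7 and 88.8 against 239.5 and 158.4 (-0.87 ± 0.18, adjusted p = 0.326), and it was the gene that DESeq2 called (adjusted p = 0.0093). The other genes at an unadjusted p under 0.05 were GRIK4, GRIN2A, GRM4 and CHRNA6, all with D2-like values above D1-like ones in both libraries. The D2-like type held 45 and 66 nuclei of sub-clusters with high ALK (2383 and 1959 CPM), and the D1-like type none. Without these sub-clusters, an alternative chosen after seeing the data, the unadjusted p of GRIK4 was 0.303 (-0.16 against -0.50 with them), that of GRIN2A 0.309 (-0.17 against -0.51) and that of CHRNA6 0.554 (-0.38 against -1.51). GABRG3 moved from -0.87 to -0.57 (unadjusted p = 0.0156 and adjusted p = 1.0 by edgeR), while GRIK3 (-2.34) and GRM4 (-0.49) moved little. GRIA4, GRIN2B, GRIK2, GRM7, GABRB1, GLRA2 and CHRNB2 were not called, with log2 fold changes from -0.17 to 0.50.

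Between nuclei and whole cells, summed over all barcodes, 31 of 45 tested receptor genes were higher in nuclei and 2 lower, against 29.8% and 22.4% of all tested genes. The median log2 fold change was 3.47 against 0.61 over all genes. The kind of library and the version of the counting program changed together and cannot be told apart. By default Cell Ranger 7.0.0 counts reads in introns and 6.0.1 does not, and since the setting used is not given in the sources used here, the levels of the 2 kinds may not be counted alike and the folds may hold that difference. Fewer cells of a type and less RNA per cell cannot be told apart in such sums. The whole cells values of library 1 rest on 198 receptor UMIs. In the whole cells libraries 68 of 2162 and 269 of 32500 barcodes held at least 200 genes, against 8810 of 8815 and 8720 of 8723 in nuclei. With such barcodes alone 31 receptor genes were higher in nuclei and 1 lower. Over all barcodes all 5 kainate, 4 AMPA and 4 glycine genes were higher in nuclei, and 0 of 7 nicotinic genes were called. With library size alone, which put the median of all genes at 3.66, all 7 were called higher in nuclei. The glycine gene GLRA1 had 0 UMIs in both whole cells libraries, and its call (adjusted p = 0.0042) was lost with DESeq2 (0.0589), with barcodes of at least 200 genes (0.151) and without whole cells library 2 (0.451).

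Among genes with at least 10 UMIs in whole cells, GRM7, GRID1, GRIK2 and GRIA4 were among those with the largest differences. GRM7 stood at 1215 and 1128 CPM in nuclei and 21.7 and 5.63 in whole cells (log2 fold change 6.84 ± 0.71, adjusted p = 3.3e-09). GRIK2 stood at 1096 and 876.3 against 13.0 and 20.7 (5.77 ± 0.62), GRIA4 at 1213 and 817.7 against 10.8 and 25.0 (5.67 ± 0.63), and GRID1 at 261.9 and 241.7 against 4.34 and 3.81 (6.01 ± 0.66). No whole cells value of these genes reached a nuclei value. Smaller folds were found for GRIA2 (371.4 and 305.8 against 62.9 and 123.0, 1.83 ± 0.51, adjusted p = 0.00334), GABRA2 (150.9 and 114.2 against 13.0 and 52.8, 1.84 ± 0.53) and GLRB (50.7 and 38.9 against 4.34 and 22.0, 1.41 ± 0.48). Leaving out 1 library leaves 1 of its kind, which is then assumed to vary like the pair of the other kind. Those of GRIA2, GABRA2 and GLRB were no longer called without nuclei library 1 (adjusted p = 0.0651, 0.0782 and 0.222), and that of GLRB also without nuclei library 2 (0.0776) and with the pool as a block (0.0752).

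The remaining called genes of this kind lay between. GRIA1 was higher by 3.53, GRIA3 by 3.47, GRIN2B by 3.48, GRIN2A by 4.15 and GRM8 by 4.48 log2 units. The GABA-A genes GABRA3, GABRA4, GABRB1 and GABRB2 were higher by 2.56 to 5.00, and GRIK1, GRIK3, GRIK5, GRM4, GLRA2 and GLRA3 by 2.79 to 3.97. GABRA5, GABRD and GRM3 were not called. With barcodes of at least 200 genes GRM3 and GABRA5 were called higher (2.41 and 2.25, adjusted p = 8.83e-07 and 6.84e-06).

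GRIN1 and GABRG1 were lower in nuclei. GRIN1 stood at 10.3 and 10.6 CPM against 21.7 and 59.1 (log2 fold change -2.10 ± 0.44, adjusted p = 0.000154), the whole cells values resting on 10 and 357 UMIs, and both nuclei values lay below both whole cells values. Without whole cells library 2 it was not called (-1.05, adjusted p = 0.122). GABRG1 stood at 5.46 and 5.41 against 2.17 and 14.4, from 1 and 87 UMIs (-1.10 ± 0.44, adjusted p = 0.0353), so its groups overlapped. The pool block (-0.68, adjusted p = 0.548) and leaving out either nuclei library (0.277 and 0.311) ended that call. Without whole cells library 2 its fold changed sign to 1.32. Both directions depend on the scaling: with library size alone GRIN1 was higher in nuclei by 0.91 and GABRG1 by 2.00, where the median of all genes was 3.66.

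**Figure D5:**
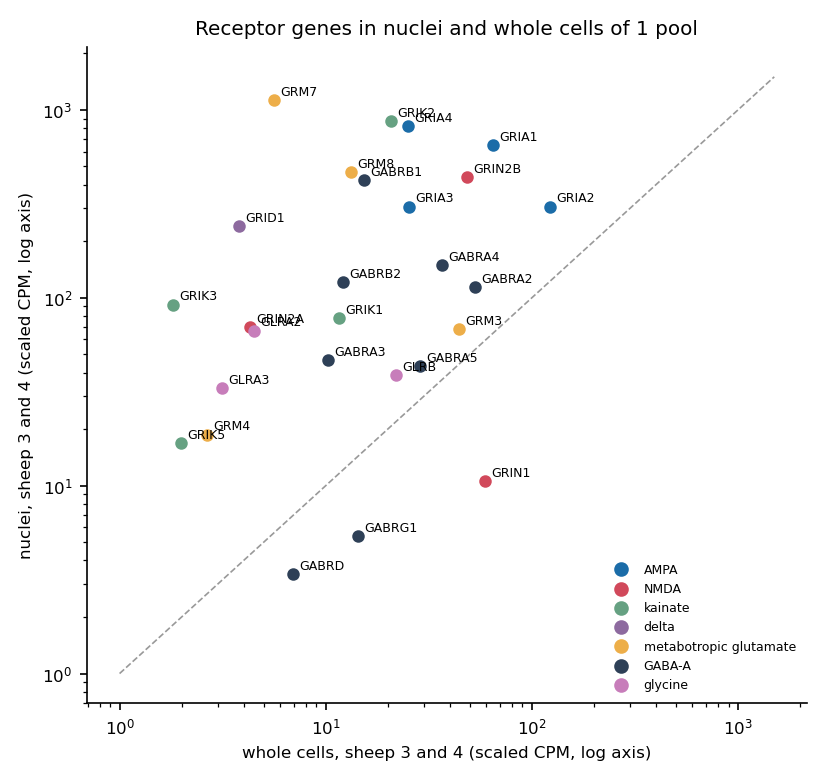
Level of 27 receptor genes with at least 10 UMIs in the whole cells libraries together, in whole cells (x) and nuclei (y) of sheep 3 and 4, as scaled CPM on log axes, coloured by family; the dashed line marks equal levels. GRM7 lies far above the line and GRIN1 below it, at 59.1 in whole cells and 10.6 in nuclei.

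The 14 receptor genes left out of the class tests were GRIN2C, GRIN3B, GRM2, GRM6, GABRA6, GABRP, GABRR1, GABRR2, GABRR3, CHRNA1, CHRNA2, CHRNA4, CHRNA9 and CHRNB3. CHRNA9, known from the inner ear, had the most UMIs of them, 50 and 32. CHRNA4, the usual partner of CHRNB2 in brain, had 6 and 9 UMIs in the nuclei libraries. GABRA6, an alpha subunit known from cerebellar granule cells, had 1 and 2. GABRR2 had 0 and 1, and a count of 0 allows up to 3 UMIs in such a library. These genes were not tested between classes. GABRP, a GABA-A subunit, stood at 1.51 and 1.83 CPM in precursor-like nuclei, from 4 and 5 UMIs, against 0.20 and 0.40 in medium spiny neuron-like and 0 and 0.14 in oligodendrocyte-like nuclei. The nicotinic family as a whole had 1240 UMIs over both nuclei libraries, against 781075 for the AMPA family, counts that also depend on gene length.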

How the data were processed

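The authors deposited 1 matrix of raw UMI counts per library, made with Cell Ranger 6.0.1 (whole cells) and 7.0.0 (nuclei), per the file headers. The submitters' processing notes also list Cell Ranger 2.1.1 and STAR 2.7.2a. Genome build, annotation release, treatment of intronic reads and barcode filter are not given in the sources used here. Barcodes under 200 genes or over 5% mitochondrial UMIs were left out, and doublets were called with Scrublet as in Scanpy 1.11.5. Nuclei were clustered (2000 variable genes, 30 components, 15 neighbours, Leiden resolution 0.5) with the receptor genes left out. A cluster took the name of the class with the most markers raised 2-fold, if these were at least 4 and 1.5 times those of the next class and no other class had more of its 10 leading genes. These naming thresholds were set after the clusters were seen, and the receptor genes and lists were chosen with earlier results of these data known.

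Counts were summed per class and library and tested over all genes with edgeR 4.0.16 in R 4.3.3 (TMM, filterByExpr, quasi-likelihood test), with the library as a block between classes and no block between nuclei and whole cells. Deviations of the same pool in the 2 kinds of library had a correlation of -0.048 over 1791 genes, so the pool number is not shown to pair them. DESeq2 1.42.0 was an alternative. The edgeR fits were tested on simulated counts, summed per class or library. There, in most class comparisons, unchanged genes were a larger share of the calls than the threshold of 0.05 allows. Between nuclei and whole cells few 2-fold changes were recovered. Clustering and the naming of clusters were not tested on simulated data. In each class comparison the genes given in full were the 8 with the largest fold in each direction, called, alike in direction in both libraries and with at least 50 UMIs in the higher class, and the gene of each family with most UMIs. Between nuclei and whole cells they were those with at least 10 UMIs in whole cells. Others are named to complete a family or count. Some receptor genes are not reported here by name or plotted, though counts and medians include them. Depth limits rare genes, and counting error alone is covered by the limit for a count of 0.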

Additional observations from a re-analysis of the deposited data

Results flagged for a closer look

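CHRNA3, GLRA1, CHRNA5 and GRIN2D were higher in a cluster of nuclei that no comparison between classes used than in every named class. The cluster held 489 and 281 nuclei in library 1 and library 2, was led by NDST4, PDZRN3, ADARB2, VCAN and SOX5, and stayed unnamed. The levels here are CPM of its own UMIs. CHRNA3 stood at 53.1 and 85.2, from 45 and 36 UMIs, at least 6.19 times the highest named class, which was interneuron-like in both libraries. GLRA1 stood at 51.9 and 52.1, from 44 and 22 UMIs, at least 2.78 times the astrocyte-like level. Another unnamed cluster, led by CACNG3 and SLC17A6 and almost wholly of library 1, had GLRA1 at 119.1, from 30 UMIs in 175 nuclei, and in library 2 held 3 nuclei with 1 UMI. CHRNA5 stood at 16.5 and 30.8, from 14 and 13 UMIs, at least 2.61 times the highest named class. GRIN2D stood at 148.6 and 123.1, from 126 and 52 UMIs, at least 2.26 times the highest named class. These genes were picked for standing at least 2-fold above every named class, so the ratios were bounded by that choice. The lower ratio of the 2 libraries is given for each, and none of these differences was tested.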

How the results depend on the processing

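Without the library term the counts of called receptor genes were 33, 23, 29, 20 and 12, against 36, 26, 29, 23 and 12 with this replicate block, for medium spiny neuron-like over oligodendrocyte-like, interneuron-like over medium spiny neuron-like, and precursor-like, astrocyte-like and microglia-like over oligodendrocyte-like nuclei. With the pool as a replicate block 30 genes were called between nuclei and whole cells, against 33 without it. Between D1-like and D2-like nuclei 0 genes were called, and 1 with DESeq2 (GABRG3) or with no filter on low counts (GRIK3). With 1 nuclei library left there is no test between classes: all 36, 26, 29, 23 and 12 called genes had the same direction in either library alone, and 0 were called between D1-like and D2-like. Between nuclei and whole cells, leaving out 1 of the 4 libraries gave 28 to 37 called genes. Leaving out the medium spiny neuron-like cluster of nearly 1 library gave 36 and 28 calls for the first 2 comparisons, and leaving out the shallower interneuron-like cluster 35 and 26, both chosen after seeing the data, as was leaving out the D2-like sub-clusters with high ALK (0 calls). A resolution of 1.0 called 8 genes higher in microglia-like nuclei, against 3. Library size scaling put all 45 tested genes higher in nuclei than in whole cells.

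Of 1286 recomputed values for 115 gene results, 1202 kept direction and call, 24 gained a call, 26 lost one, 6 moved beyond the spread of the libraries and 28 changed sign. These results are the genes given in full, chosen mainly for the largest called folds, so the tally does not stand for all receptor genes. Other genes that lost calls, such as GRIA2, CHRNA5 and GRIN2D in astrocyte-like nuclei, are not in it. The sign changes, as log2 fold changes, were as follows, and their cause was not tested unless stated. Interneuron-like over medium spiny neuron-like, with 500 genes per nucleus and with doublets kept (where the deeper interneuron-like cluster was not named so), gave GRIN2B 0.54 and 0.48, GABRB1 0.15 and 0.10 and GABRG3 -0.49 and -1.29, and library size scaling gave GRIN2B 0.058. CHRNB2 in precursor-like nuclei was 0.70 with doublets kept. In astrocyte-like nuclei GRIA4 was -0.50, -0.33, -0.44 and -0.37 and CHRNB2 -3.58, -3.60, -3.49 and -3.49 with 500 genes, doublets kept, receptor genes in the clustering and resolution 1.0. In microglia-like nuclei GRIN2B was 0.60 with doublets kept, 0.36 with library size scaling and 1.35 at resolution 1.0, and GRIK2 -0.18 with doublets kept and -0.0093 with no filter. For nuclei over whole cells, library size scaling gave GRIN1 0.91, GABRD 2.65 and GABRG1 2.00. GABRD was 0.0026 with DESeq2, and leaving out 1 library gave it -0.81 to 11.87, the highest without whole cells replicate 2, where its 0 UMIs in the other library make that fold no bound. GABRG1 was 0.44 with barcodes of at least 200 genes, and leaving out 1 library gave it -1.28 to 1.32, the highest without whole cells replicate 2.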
